A study of Danio rerio with 5 samples.

Results

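The genes described here are the matrix metallopeptidase genes of zebrafish that were measured on an Affymetrix array under a single gene symbol, together with the inhibitor gene timp2b. They were found as the probe sets whose only symbol in the platform's probe-to-gene table was mmp9, mmp13a, mmp2, mmp14a, mmp14b, mmp11b, mmp17b or timp2b. These were 8 of 8793 named genes, and 10 of 15502 probe sets, since mmp2 and mmp14a each had a pair. The 7 metallopeptidase genes were every one of the 25 mmp genes in the RefSeq table that had such a probe set, so they were not picked among the family by their values. The inhibitor timp2b was 1 of 2 measured among 5 timp genes. The set was put together after large differences of mmp9, mmp13a and timp2b between irradiated and control larvae had been seen, so those differences are given as a description, with no test.

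RNA came from whole AB-strain larvae aged 7 days after fertilization. At 24 h their embryos had been exposed to a proton beam of 8 MeV/u at 7.5 Gy/min (Gy, gray, a unit of absorbed radiation). There was 1 array from unirradiated larvae, 1 after 12 Gy and 3 after 15 Gy, each from a pool of 20 animals withdrawn from groups of 60. The 3 arrays after 15 Gy are called pools 1, 2 and 3 after their replicate numbers. The labels name no transgene or mutation, call the 15 Gy pools biological replicates and do not say whether they were irradiated separately, so their spread may be technical. Values are log2 intensities, in which a difference of 1 is a 2-fold change, and they can be compared between arrays for a probe set but not between probe sets.

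Matrix metallopeptidases are zinc-dependent enzymes that cut collagens and other proteins of the extracellular matrix. Most are made as inactive precursors, and some are secreted whereas the membrane-type enzymes stay at the cell surface. Tissue inhibitors of metallopeptidases, the TIMP proteins, block their active sites, and in mammals TIMP2 also helps the membrane-type enzyme MMP14 to activate pro-MMP2. In zebrafish, mmp9 and mmp13a are known as genes induced at wounds and in inflamed or regenerating fins.

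Of the 8 genes, 6 lay at least 2-fold above the control in every 15 Gy pool, which was true of 5.09% of all named genes. These were mmp9, mmp13a, mmp2, mmp14a, mmp14b and timp2b. None of the 8 lay at least 2-fold below the control in all 3 arrays, as 2.49% of named genes did. At 12 Gy, 5 of the 8 were at least 2-fold above the control (6.41% of named genes) and 0 at least 2-fold below it (4.53%). The differences fell into separate sizes, very large for mmp9, mmp13a and timp2b, intermediate for mmp2, small for the mmp14 pair, and near or below zero for mmp11b and mmp17b. The control and the 12 Gy group were 1 array each, so neither difference has a replicate check on the control side.

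**Figure D1:**
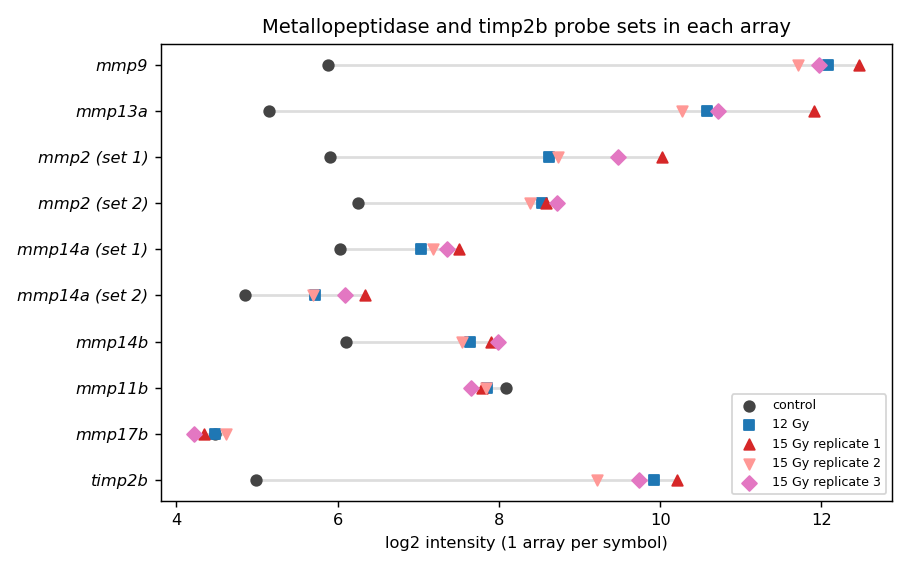
Log2 intensity (horizontal axis) of each of the 10 probe sets (vertical axis), with 1 symbol per array: control, 12 Gy and 15 Gy pools 1 to 3. In mmp9, mmp13a and timp2b the 4 irradiated arrays lie far to the right of the control array, whereas in mmp11b and mmp17b all 5 arrays lie close together.

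Among the secreted gelatinases and collagenases, mmp9 had the largest difference of any named gene at both doses. It encodes gelatinase B, which degrades denatured collagen and basement membrane collagen. Its log2 intensity was 5.88 in the control, 12.08 in the 12 Gy array, and 12.47, 11.70 and 11.96 in 15 Gy pools 1, 2 and 3. All 4 irradiated arrays were far above the control, and the 12 Gy array lay between 15 Gy pools 1 and 3. The difference from the control was 6.20 at 12 Gy (73.8-fold) and 6.17 at 15 Gy (71.8-fold, with an SE of 0.36 on the log2 scale). The 15 Gy arrays themselves had a mean of 12.05 ± 0.39 (SD, n = 3).

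The collagenase gene mmp13a, whose mammalian counterpart cuts intact fibrillar collagen, held rank 2 in size at 15 Gy and rank 3 at 12 Gy. It stood at 5.15 in the control, 10.58 in the 12 Gy array, and 11.91, 10.27 and 10.71 in 15 Gy pools 1, 2 and 3. The irradiated arrays were again all far above the control, but pool 1 stood apart from the other 15 Gy pools by more than 1 on the log2 scale. The difference from the control was 5.81 at 15 Gy (56.3-fold, SE 0.78) and 5.43 at 12 Gy (43.0-fold). The SD among the 15 Gy pools was 0.85, and only 1.38% of named genes had a larger one.

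The gene mmp2 encodes gelatinase A, in mammals the usual target of activation by MMP14. Its probe set with the higher mean read 5.91 in the control, 8.63 in the 12 Gy array, and 10.02, 8.74 and 9.48 in 15 Gy pools 1, 2 and 3. Its other probe set read 6.25, 8.53, 8.58, 8.39 and 8.72 in the same order. Both placed every irradiated array above the control, with no overlap. They disagreed on the size at 15 Gy, where the difference was 3.51 (SE 0.59) on the first and 2.31 (SE 0.17) on the second. They also disagreed on the pools, since pool 1 was the highest 15 Gy array on the first probe set and pool 3 on the second. At 12 Gy the differences were closer, 2.72 and 2.28.

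The membrane-type metallopeptidase genes mmp14a and mmp14b are a pair of zebrafish counterparts of mammalian MMP14. Levels of mmp14a were 6.03 in the control, 7.03 in the 12 Gy array, and 7.50, 7.18 and 7.36 in 15 Gy pools 1, 2 and 3. Those of mmp14b were 6.11, 7.64, 7.90, 7.55 and 7.98 in the same order. In both genes the irradiated arrays sat within a narrow band above the control. The 15 Gy difference was 1.32 (SE 0.16) for mmp14a and 1.71 (SE 0.22) for mmp14b. At 12 Gy, the log2 difference of mmp14a was 0.9996, just short of 2-fold, and mmp14b was 2.90-fold above the control. The dimmer probe set of mmp14a showed a like difference at 15 Gy, 1.19 (SE 0.30), but in pool 2 it did not reach 2-fold.

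The remaining pair of metallopeptidase genes did not share this pattern. For mmp11b, related to the mammalian stromelysin-3 gene, the values were 8.09 in the control, 7.85 in the 12 Gy array, and 7.78, 7.84 and 7.65 in 15 Gy pools 1, 2 and 3. All 4 irradiated arrays were slightly below the control, and the 15 Gy difference was −0.33 (SE 0.11). A position below the control in every 15 Gy array was shared by 36.5% of named genes. The membrane-type gene mmp17b was dim, and only 13.1% of named genes read lower in the control array. Its values were 4.47 in both the control and the 12 Gy array, identical to 8 decimals, and 4.35, 4.62 and 4.22 in 15 Gy pools 1, 2 and 3. The 15 Gy pools thus straddled the control, and the difference of −0.08 (SE 0.20) was within their spread.

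The inhibitor gene timp2b had a difference of the same order as mmp9 and mmp13a. It read 4.98 in the control, 9.92 in the 12 Gy array, and 10.21, 9.22 and 9.74 in 15 Gy pools 1, 2 and 3. The control was far below all other arrays, and the 12 Gy array lay within the range of the 15 Gy pools. The difference was 4.94 at 12 Gy (30.7-fold) and 4.74 at 15 Gy (26.7-fold, SE 0.46), and it held rank 5 among named genes at both doses. Its paralogue timp2a, also an inhibitor gene and outside the set, read 7.83 in the control, 9.17 in the 12 Gy array, and 8.88, 8.65 and 8.99 in the 15 Gy pools. It was higher in all irradiated arrays, but by 1.35 at 12 Gy and 1.01 (SE 0.17) at 15 Gy. No other inhibitor on the list, such as timp3 or reck, had a probe set of its own symbol.

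**Figure D2:**
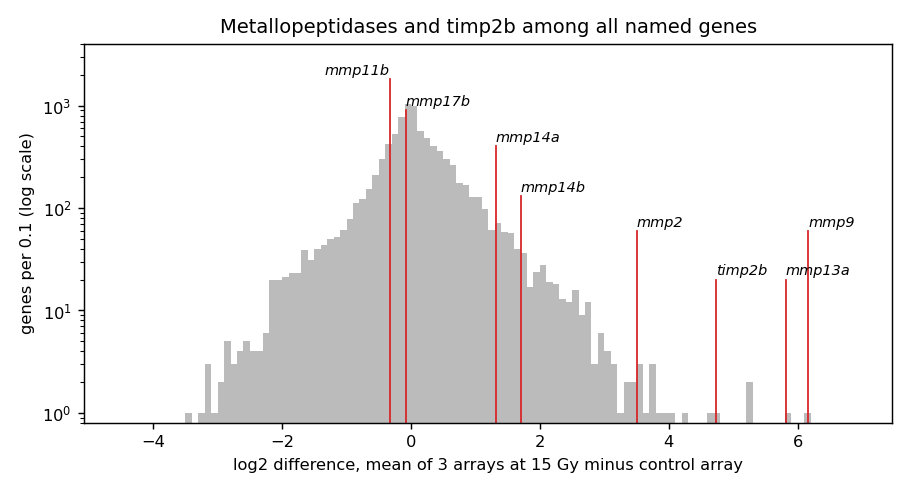
Number of named genes (vertical axis, log scale) in steps of 0.1 of the log2 difference between the mean of the 3 arrays at 15 Gy and the control array (horizontal axis), with the 8 genes marked by red lines whose heights carry no value. The lines of mmp9, mmp13a and timp2b stand at the far right end, those of mmp14a and mmp14b in the right flank, and those of mmp11b and mmp17b near the centre.

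In the control array, 5 of the 8 genes read below 5.95, that array's median over all probe sets. They were mmp9, mmp13a, mmp2, mmp17b and timp2b, although the other probe set of mmp2 read above it, at 6.25. The mmp14 pair also read above it, but only 42.5% of named genes read lower than mmp14a and 44.1% lower than mmp14b. For timp2b, 20.9% of named genes read lower in the control and for mmp13a 24.1%. Detection calls could not be made from these values. Signal that does not come from the transcript makes up more of a dim value, which lowers a fold change. With 1 control array, error in a dim control value could also shift a fold change in either direction. With 16 added to every intensity before the log, the 15 Gy difference of timp2b was 4.18 and that of mmp14a 1.14.

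Whether 15 Gy differed from 12 Gy was tested in a limma model fitted to all 15502 probe sets, and 0 of the 8 genes passed, where 1 probe set (0.00645%) did. By size, 0 of the 8 lay at least 2-fold above (0.262% of named genes) or below (0.193%) the 12 Gy array in every 15 Gy pool. Their Benjamini-Hochberg adjusted p over all probe sets ran from 0.658 to 0.982. The difference between the doses, 15 Gy minus 12 Gy, was −0.04 for mmp9, with a 95% confidence interval from −1.15 to 1.07 on the log2 scale. It was 0.39 for mmp13a (−2.004 to 2.783), 0.78 for mmp2 (−1.03 to 2.60) and −0.20 for timp2b (−1.61 to 1.21). For these genes the intervals include 2-fold differences in either direction, so a missed threshold does not show that the doses had the same effect. The intervals were narrower for mmp14a (−0.18 to 0.82), mmp14b (−0.52 to 0.85), mmp11b (−0.44 to 0.26) and mmp17b (−0.68 to 0.52), none of which reached 2-fold. The 12 Gy array lay within the range of the 15 Gy pools in 5 of the 8 genes, against 47.7% of all named genes. In mmp2 and mmp14a it lay below all 3 pools, although within their range on the other probe set of each gene, and in mmp11b above them.

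For comparison, between irradiated larvae and the control limma called 0 probe sets (0%) at either dose, with an adjusted threshold of 0.05. Without adjustment, a p of 0.05 was passed by 4062 probe sets (26.2%) at 15 Gy and by 2644 (17.1%) at 12 Gy. The model's spread came from the 15 Gy arrays alone, since the control and 12 Gy groups had no replicate. On the array as a whole, 7 of 12 measured organ markers of a larva, such as the muscle gene mylpfa, read above the upper quartile in every array. The muscle actin control probe sets give a 5′ to 3′ ratio that reflects RNA quality, with 0.0171 in the control, 0.0354 in the 12 Gy array, and 0.129, 0.0350 and 0.108 in 15 Gy pools 1, 2 and 3. The ratio of the GAPDH control probe sets varied less, with 0.174, 0.177, 0.242, 0.189 and 0.228 in the same order. The part of RNA quality in the differences from the control was not tested.

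The 6 genes that were at least 2-fold higher also ordered the 15 Gy pools largely alike. Pool 2 was the lowest pool in all 6, and pool 1 the highest in 5, with pool 3 highest in mmp14b. On the other probe set of mmp2, pool 3 was also the highest. An order with pool 2 lowest and pool 1 highest was not particular to the 6 genes. Among all 448 named genes at least 2-fold higher in every 15 Gy array, pool 2 was the lowest in 96.2% and pool 1 the highest in 90.8%. Over all named genes the shares were 42.4% and 48.9%. The actin and GAPDH 5′ to 3′ ratios had the same order among these pools, highest in pool 1 and lowest in pool 2. The part of RNA quality in the order was not tested. In mmp11b and mmp17b, pool 2 was instead the highest pool and pool 3 the lowest.

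Likeness of pattern was measured as the Euclidean distance between log2 profiles over the 5 arrays, each centred on its own mean, so that a smaller distance is a closer match. The control enters each distance as a single array. Profiles were not scaled, so much of a distance is the size of the gap to the control. Genes with little change lie close whatever the order of their arrays. For mmp9, mmp13a and timp2b that gap was known when the set was put together. Within the set, the closest pairs were mmp11b and mmp17b (0.28), mmp14a and mmp14b (0.45) and mmp9 and mmp13a (0.86). In mmp11b the control was the highest array, whereas in mmp17b it was 15 Gy pool 2. The inhibitor timp2b was nearer to mmp13a (1.13) and mmp9 (1.26) than to mmp2 (1.59).

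Among all named genes, mmp9 was nearest to mmp13a, followed by the heat shock gene hsp70.3 (1.04), timp2b, the cytokine signalling inhibitor gene socs3a (1.35) and irg1l (1.65). The gene hsp70.3 has near-identical copies, so its value may not belong to it alone. For mmp13a the nearest was hsp70.3 (0.79), and after mmp9, timp2b and irg1l (1.33) came the prostaglandin synthase gene ptgs2a (1.36). For timp2b the nearest gene was socs3a (0.36), whose values were 6.28 in the control, 11.44 in the 12 Gy array, and 11.23, 10.52 and 10.96 in the 15 Gy pools. It was followed by ptgs2a (0.61), hsp70.3 (0.78), the transcription factor gene cebpb (0.83) and the annexin gene anxa2a (0.91). The nearest genes to mmp2 were others, the vault protein gene mvp (0.33), s100a10b (0.42), csrp1a (0.48), moxd1 (0.48) and the thioredoxin gene txnb (0.49). All distances of mmp2 rest on its probe set with the higher mean. Its other probe set, which differed in size and in the order of the pools, was not compared in this way.

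**Figure D3:**
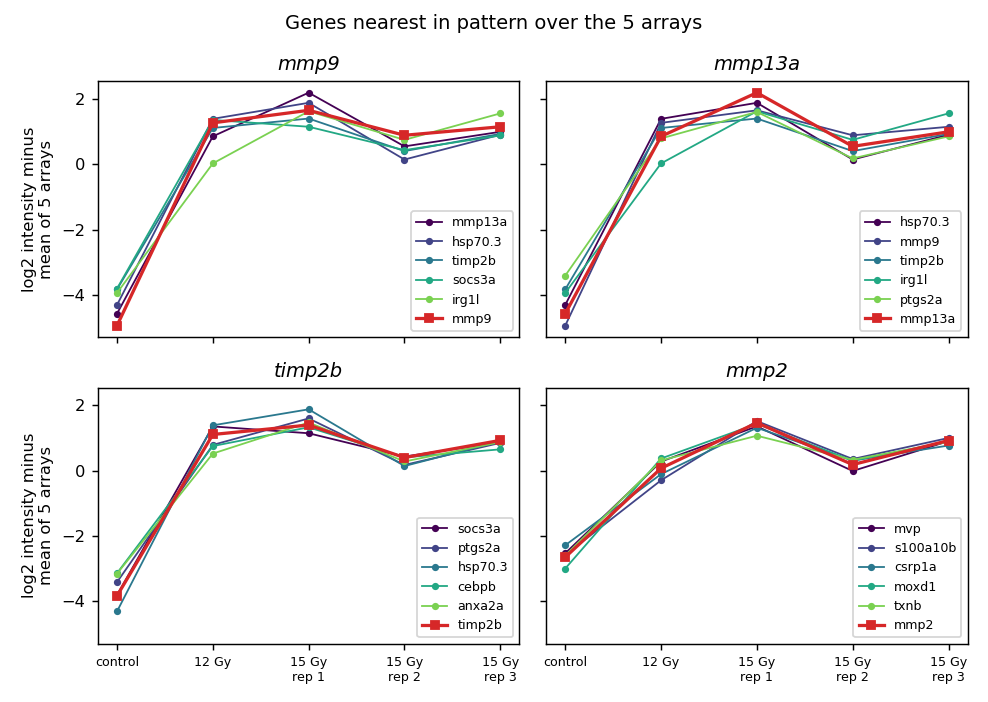
Log2 intensity minus the mean of the 5 arrays (vertical axis) in each array (horizontal axis) for mmp9, mmp13a, timp2b and mmp2 (red squares) and the 5 named genes nearest to each (circles); lines join the arrays of a gene as a guide only. In all 4 panels the control array lies far below the others, and in every gene shown except socs3a the 12 Gy array lies below 15 Gy pool 1.

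Genes next to the 8 on the chromosomes were also looked at, as the nearest protein-coding gene on each side in the RefSeq assembly GRCz12tu. Of 16 such neighbours, 7 were measured. In every 15 Gy array 0 were at least 2-fold higher (5.09% of named genes) or lower (2.49%). With 7 genes and shares this low, a count of 0 says little. The neighbour of mmp9, dclre1b, a DNA crosslink repair gene, was −0.84 from the control at 15 Gy. Next to mmp14b, sall2 (−0.34) and acin1a (−0.43) were also slightly below the control, as was smarcb1b, next to mmp11b (−0.54). On the other side of mmp11b, chchd10 stood at 0.27, mrpl52, next to mmp14a, at 0.25, and lpcat2, next to mmp2, at 0.00.

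Other genes that act with metallopeptidases were described through 6 lists, of which 5 had measured genes, 55 in all. These lists, and the cell type marker lists further on, were chosen with earlier results of these data known. Their counts are therefore a description, with no test, and are not independent of the differences described above. At least 2-fold above the control in every 15 Gy array were 15 of the 55, against 5.09% of all named genes. At least 2-fold below it was 1, against 2.49%, and 1 of 55 is near that share. The 15 became 14 after median centring or cyclic loess and 12 with the mean of all probe sets of a gene. Without 15 Gy pool 2 the count was 17, but leaving out a pool cannot lower it. The median log2 difference of the 55 was 0.35, against 0.01 for all named genes. The list of other matrix metallopeptidases, 18 genes, had 0 measured members.

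Matrix substrates, the collagens, laminins and glycoproteins that these enzymes cut, numbered 32, with a median of 0.53. Of these, 8 were at least 2-fold higher (5.09% of named genes) and 0 lower (2.49%). With 32 genes and a share as low as 2.49%, a count of 0 lower says little. The 8 became 6 with the mean of all probe sets of a gene. The fibronectin genes led the 8. For fn1b the values were 6.67 in the control, 9.86 in the 12 Gy array, and 10.38, 10.15 and 10.76 in the 15 Gy pools, a difference of 3.75 (SE 0.29). Its paralogue fn1a differed by 2.78 (SE 0.44), the laminin chain gene lamc1 by 2.74 (SE 0.93) and the fibrillar collagen gene col5a2a by 1.90 (SE 0.33). The SE of lamc1 is wide because its 15 Gy pools ran from 5.67 to 7.65.

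Genes around plasmin, a protease that can activate metallopeptidase precursors, numbered 7, with a median of 0.23. Of these, 3 were at least 2-fold higher (5.09% of named genes) and 0 lower (2.49%). They were anxa2a (4.03, SE 0.55) and s100a10b (3.54, SE 0.54), whose products form a complex that binds plasminogen in mammals, and serpine2, a protease inhibitor gene (1.52, SE 0.41). The paralogue of anxa2a, anxa2b, did not share this. It read 7.34 in the control and differed by −0.13 (SE 0.29) at 15 Gy and by −0.86 at 12 Gy. The gene of plasminogen itself, plg, read 6.61 in the control, 7.73 in the 12 Gy array, and 6.88, 6.87 and 6.75 in the 15 Gy pools, so that only the 12 Gy array stood more than 2-fold above the control. The urokinase gene plaua was dim and read 3.17 to 3.31 at 15 Gy against 3.31 in the control array.

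Of 8 genes for cell-surface partners, 4 were at least 2-fold higher (5.09% of named genes) and 0 lower (2.49%), with a median of 0.75. The hyaluronan receptor gene cd44a, whose mammalian product can hold MMP9 at the cell surface, differed by 2.43 (SE 0.59). In pool 2 the gene cav1 was barely past 2-fold, and the count of 4 was 3 after median centring, cyclic loess or averaging probe sets. The tetraspanin genes cd9b and cd63 differed by 2.13 (SE 0.61) and 1.92 (SE 0.34), and the caveolin gene cav1 by 1.15 (SE 0.13). In the list of adam and adamts metallopeptidases, membrane and secreted relatives, no adamts gene was measured. Of its 7 measured genes, 3 were above the control at 15 Gy on average, with adam10a at 0.69 and adam17a at 0.56. The paralogue adam10b stood at −0.55. The median of the list was −0.41 at 15 Gy and 0.18 at 12 Gy. None of the 7 was at least 2-fold higher (5.09% of named genes), and 1 was at least 2-fold lower (2.49%). That was adam23a, a neuronal adhesion gene, at 9.44 in the control array and 7.11, 8.41 and 7.92 at 15 Gy. The list includes meltf, which is not an adam or adamts gene, and without it the median of the other 6 genes was −0.04 at 15 Gy and 0.03 at 12 Gy.

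**Figure D4:**
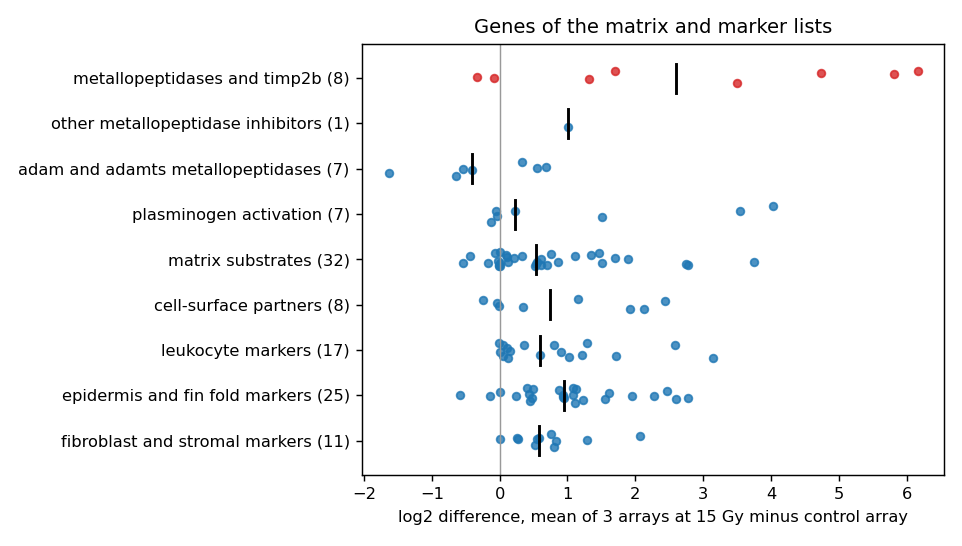
Log2 difference between the mean of the 3 arrays at 15 Gy and the control array (horizontal axis) for each measured gene of the lists (vertical axis, number of genes in brackets); red points are the 8 genes described here, and black bars are medians. The median of the 8 genes is 2.61 and that of the matrix substrates 0.53. Points lie on both sides of 0 in every row except the other inhibitors (1 gene) and the fibroblast and stromal markers, where all are above it.

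Whole-larva RNA does not separate more RNA per cell from more cells of a type, and mmp9 and mmp13a are known to be transcribed in leukocytes as well as in skin. The 17 measured leukocyte markers had a median of 0.59. At least 2-fold below the control in every 15 Gy array were 0 (2.49% of named genes). At least 2-fold above it were 4 (23.5%, against 5.09%). They were srgn (3.14, SE 0.54), nccrp1 (2.59, SE 0.60), arpc1b (1.71, SE 0.40) and lcp1 (1.21, SE 0.10). The neutrophil peroxidase gene mpx read 5.59 in the control, 6.05 in the 12 Gy array, and 5.72, 5.80 and 5.70 in the 15 Gy pools, and the neutrophil lysozyme gene lyz differed by 1.02 (SE 0.30). The leukocyte phosphatase gene ptprc differed by 0.59 (SE 0.07). Smaller differences were those of laptm5 (0.35), cd74a (0.13), spi1b (0.11), cyba (0.06) and ptpn6 (0.05). Larger ones were those of coro1a (1.29), marco (0.90) and ncf1 (0.80). The macrophage receptor gene csf1ra read 4.55 in all 5 arrays and, like cxcr4b, lay below the lower quartile in each. The summed intensity of the 17 markers was 759.7 in the control, 1552 in the 12 Gy array and 1600.4 to 2809 at 15 Gy. Between 63.2% and 70.7% of the excess over the control in each irradiated array came from srgn and nccrp1.

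Skin markers were looked at in the same way. Among 25 markers of epidermis and fin fold, 7 (28.0%, against 5.09% of named genes) were at least 2-fold higher and 0 lower (2.49%). The median of the 25 was 0.95. The 7 were led by anxa1a (2.77, SE 0.38), the tight junction gene cldnb (2.59, SE 0.31), epcam (2.47, SE 0.57) and the cadherin gene cdh1 (2.28, SE 0.12). Without 15 Gy pool 2 the count of 7 became 14. Leaving out a pool cannot lower such a count, and the 5.09% is for all 3 pools. With the mean of all probe sets of a gene the count was 6. The summed intensity of the 25 was 10571 in the control, 10872 in the 12 Gy array and 18077 to 27093 at 15 Gy. Such a sum leans on the bright probe sets, here most on krt4, the brightest of the list in every array. At 12 Gy the median of the 25 was 0.19, and 5 were at least 2-fold above the control (6.41% of named genes). These were cldnb (2.37), cdh1 (2.21), anxa1a (1.57), epcam (1.12) and tp63 (1.003). The keratin genes krt5 (−0.96), krt17 (−0.66) and krt4 (−0.56), the brightest of the list in the control, were below it there. At 15 Gy these keratin genes differed from the control by 0.01, 0.45 and 1.13 in the same order. On average at 15 Gy, 23 of the 25 markers were above the control. Among 11 fibroblast and stromal markers, with a median of 0.58, 1 was at least 2-fold higher (9.09%, against 5.09%), prrx1a (2.08, SE 0.33). Without 15 Gy pool 2 the count was 2, and here too leaving out a pool cannot lower it. The summed intensity was 3138 in the control, 4369 in the 12 Gy array and 4443 to 5241 at 15 Gy, and it leaned most on postnb, the brightest of the list in every array. The part of cell composition in the metallopeptidase differences was not tested.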

How the data were processed

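RNA of whole larvae was measured on 5 Affymetrix zebrafish arrays, each with biotin-labelled cRNA from 6 µg of total RNA per the labels' protocols. Each probe set has 1 deposited intensity per array, linear and between 3.99 and 24171. Per the submitters' processing notes the authors used RMA, a method that corrects background, equalizes quantiles and summarizes probes. Since RMA output is on a log2 scale, the deposited values were probably converted back, which no label states. Its version is not given in the sources used here. Scanner files were not used here.

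Log2 was taken with no added constant, and 115 control probe sets were excluded. Of 15502 probe sets, 10795 had 1 symbol, 135 had several and 4572 none. Entrez identifiers linked 10711 of them to the RefSeq table of GRCz12tu, which changed 1 symbol. Where a gene had several probe sets, the one with the highest mean intensity stood for it. A limma 3.58.1 model (R 4.3.3) with a mean per dose was fitted to all probe sets, with 2 residual degrees of freedom and 1.20 from the prior, and two-sided p-values were adjusted by Benjamini-Hochberg over all probe sets. SEs and confidence intervals are the model's moderated ones, and SDs are over the 15 Gy arrays. The model fit was tested on simulated data with large known changes in the 15 Gy arrays. Tables and figures used Python 3.11.15, pandas 2.3.3 and matplotlib 3.10.9.

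The genes and lists were chosen with earlier results of these data known. Besides the 8 genes, the text names up to 4 genes per list that were at least 2-fold from the control in every 15 Gy array, some fixed markers, and the 5 genes nearest in pattern. The chromosomal neighbours, plaua, anxa2b, meltf, adam10a, adam10b, adam17a, tp63, the keratin genes, postnb and mylpfa were added after values were seen. So were the leukocyte markers cxcr4b, laptm5, cd74a, spi1b, cyba, ptpn6, coro1a, marco and ncf1. No sequence was printed, as the tables used here hold none. No batch was given in the sources used here. The alternatives were 3 other normalizations, an added constant, other handling of probe sets and dim values, another variance model, 1 group of irradiated arrays, and leaving out each 15 Gy pool.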

Additional observations from a re-analysis of the deposited data

How the results depend on the processing

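The control and the 12 Gy group had 1 array each, which no alternative can replace. The count of 6 genes at least 2-fold higher in every 15 Gy array stayed at 6 under quantile normalization again, median centring and cyclic loess. The count was 5 with log2(value + 16) and with the mean of all probe sets of a gene. Without each 15 Gy replicate it was 6, but a rule on every remaining pool cannot lower a count. Those counts therefore do not show that the 6 is stable. There were 92 values of a gene's difference from the control under an alternative able to move it. Of these, 89 moved by less than the SD of the 15 Gy pools. The others were mmp14a at 15 Gy and timp2b at both doses with log2(value + 16), where timp2b at 12 Gy was 4.37. The 89 include the 15 Gy differences without each 15 Gy replicate. Leaving out a pool cannot move the mean of so few pools by as much as their SD. Those values could not have failed this comparison, so they do not show that the differences are stable. The difference between 15 Gy and 12 Gy changed sign on leaving out pools. For mmp9 it ran from −0.25 to 0.13, for mmp13a from −0.084 to 0.74, for timp2b from −0.44 to 0.054 and for mmp17b from −0.19 to 0.0084, and 0 passed. The number of probe sets called for 12 Gy against control was 4 after quantile normalization again, 1 after median centring, 2 after cyclic loess and 1 with an intensity trend and robust variances. For 15 Gy against 12 Gy it was 0 without each replicate in turn and 0 without the dimmest 30% of probe sets. For 15 Gy against control it was 6 with all 4 irradiated arrays as 1 group. The cause of these changes was not tested. No paired analysis was possible because the groups share only replicate number 1. Probe sets near the lower quartile, such as those of mmp17b and csf1ra, limit what can be said of those genes.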
